A study of Rattus norvegicus with 60 samples.

Results

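The globin rows are 4 genes of the RNA table, chosen by their symbols: Hbb and Hbb-b1, which encode beta chains of hemoglobin, and Hba-a2 and Hba2, which encode alpha chains. They are 4 of 22865 genes, and each symbol matched a single row. RNA had been sequenced from CA1, a field of the hippocampus, of Sprague-Dawley rats (age 90 to 120 d), to follow expression after contextual threat recognition training. It came from 9 naive libraries, 6 from place animals at 1 h, 8 from threat animals at 1 h, 5 from place animals at 24 h and 6 from threat animals at 24 h. Naive RNA libraries carry no time in their labels, and the labels do not say further what place and threat animals underwent. Nor do they say that replicates were separate animals: the spread behind each p-value is that between libraries and could be technical. The animals carried no labelled allele or agent. In a further 26 samples methylated DNA captured with a methyl-binding protein (MBD), or input DNA not captured, was sequenced from the same tissue.

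Hemoglobin is assembled from pairs of alpha and beta chains, each holding a heme group that binds oxygen. Its mRNAs are made in red cell precursors of the bone marrow and persist in reticulocytes, the youngest circulating red cells, which have lost their nucleus. In tissue taken with blood in its vessels these mRNAs are a common measure of blood content. Low levels have also been described in neurons and glia. In bulk tissue more cells of a type and more RNA per cell cannot be told apart.

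All 4 rows lay on the minus strand. In rn5 coordinates, Hbb (ENSRNOG00000049424) spans positions 175134674 to 175136088 of chromosome 1 and Hbb-b1 (ENSRNOG00000047098) positions 175104276 to 175111736. On chromosome 10, Hba-a2 (ENSRNOG00000029886) spans positions 15497886 to 15498744 and Hba2 (ENSRNOG00000047321) positions 15484461 to 15485305. The 150 bases before the start of transcription are shown because erythroid genes carry short promoter motifs that can be read by eye. They come from RefSeq on the GRCr8 build, 5′ to 3′ on the gene's strand. Hbb lies at chr1:167663722-167663871, Hbb-b1 at chr1:167643521-167643670, Hba-a2 at chr10:15829139-15829288 and Hba-a1 at chr10:15842581-15842730. RefSeq gives Hba2 as a synonym of its Hba-a2 gene and Hba-a2 as a synonym of its Hba-a1 gene, so the names do not settle which alpha promoter belongs to which row, and both are printed. Capitals mark matches, on either strand, to CACCC (the letters of sites of the erythroid factor Klf1), CCAAT, GATA (letters of Gata1 sites) and ATAAA (found in TATA boxes). No marked match overlapped another.
Hbb: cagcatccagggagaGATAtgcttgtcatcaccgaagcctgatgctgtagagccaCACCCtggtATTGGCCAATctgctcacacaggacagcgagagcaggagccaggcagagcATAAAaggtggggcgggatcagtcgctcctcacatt
Hbb-b1: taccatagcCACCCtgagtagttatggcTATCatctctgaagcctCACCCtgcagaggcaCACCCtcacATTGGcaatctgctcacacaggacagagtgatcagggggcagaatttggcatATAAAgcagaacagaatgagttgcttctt
Hba-a2: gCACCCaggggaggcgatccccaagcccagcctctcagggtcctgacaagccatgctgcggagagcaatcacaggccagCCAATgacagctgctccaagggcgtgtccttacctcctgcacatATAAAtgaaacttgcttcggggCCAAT
Hba-a1: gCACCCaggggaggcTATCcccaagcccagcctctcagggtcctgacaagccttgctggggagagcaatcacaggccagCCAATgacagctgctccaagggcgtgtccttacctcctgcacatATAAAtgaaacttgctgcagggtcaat
Both alpha windows carried ATAAA starting 27 bases before the start and CCAAT starting 71 bases before it, and they were identical at 96.0% of aligned positions. The Hbb and Hbb-b1 windows carried ATAAA starting 36 and 29 bases before the start. Both carried a CACCC match followed within a few bases by CCAAT on the opposite strand. Hbb-b1 held 3 matches to CACCC and Hbb held 1, and the beta windows were identical at 67.9% of aligned positions. GATA was found once in the Hbb, Hbb-b1 and Hba-a1 windows. Over 33469 promoter windows of this length, CACCC was present in 35.2%, CCAAT in 23.5%, GATA in 38.2% and ATAAA in 25.7%. A match is a description of letters, not of a bound site.

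The globin mRNAs were detected in every library. Mean levels over the 34 libraries were 126 FPKM (fragments scaled to gene length and library size) for Hba-a2, 85.7 for Hbb, 50.8 for Hba2 and 10.2 for Hbb-b1. Since FPKM is per length, these levels can be set beside each other. Hba-a2 ranked 285 among all genes by mean level, Hbb ranked 501, Hba2 ranked 1029 and Hbb-b1 ranked 5474. All 4 were above 0 in each of the 34 libraries and passed the filter of 1 FPKM in at least 5 libraries, as 13153 genes did.

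Low FPKM values moved in steps of whole reads, from which library totals of 38.0 to 55.1 M reads were inferred. Behind each Hbb value then stood 1210 to 4745 reads, behind Hba-a2 1468 to 6642, behind Hba2 661 to 2555 and behind Hbb-b1 124 to 611. The largest counting error was 8.98% for a Hbb-b1 value and at most 3.89% for the other 3 rows, well under the spread between replicates (19.4% to 46.7% of a group mean). The 4 rows together took 0.0081% to 0.032% of a library's reads, with a median of 0.0159%. How reads shared by near-identical globin genes were assigned is not given in the sources used here, so the level of a single row is less certain than that of the family.

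Blood was checked as the label of these transcripts against other genes of red cells, white cells and platelets. Embryonic Hbe1, Hbe2 and fetal-type Hbg1 were listed at 0 in all 34 libraries. Alas2, the red cell form of the first heme synthesis enzyme, averaged 0.681 FPKM and was above 0 in all 34. Slc4a1, the anion exchanger of the red cell membrane, averaged 0.0452 FPKM, Ahsp, the chaperone of free alpha chains, 0.0443 FPKM, and Gata1, the erythroid transcription factor, was above 0 in 1 library. Of 32 red cell genes found besides the globin rows, 3 were at 0 in all libraries and 8 passed the filter. Most of their summed level came from genes that brain cells also express, among them Epb49 (42.1 FPKM) and Bpgm (34.6). The white cell marker Ptprc averaged 0.641 FPKM, the neutrophil genes S100a8 and S100a9 0.111 and 0.11, and the platelet chemokine Ppbp was listed at 0 in all 34 libraries. Of the CA1 markers, Slc17a7, the vesicular glutamate transporter, averaged 341 FPKM and Wfs1 114 FPKM. Apart from adult globins, Epb49 and Bpgm, no blood gene named so far averaged 1 FPKM, but those named are a selection. Others of the same lists averaged more, among them the red cell genes Sptb (13.9 FPKM) and Ank1 (7.14). The leukocyte markers Lyz2 (12.4) and Lcp1 (10.3) and the platelet marker Gp1bb (9.82) did so too. Of 27 leukocyte markers found 4 passed the filter, and of 13 platelet markers 2 did.

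The lowest levels were those of place libraries at 1 h. Hbb ran from 44.4 to 71.8 FPKM there (median 51.7, n = 6), from 55.0 to 126 in naive libraries (median 82.6, n = 9) and from 55.4 to 124 in threat libraries at 1 h (median 95.7, n = 8). At 24 h the place libraries stood at 60.1, 75.0, 167, 113 and 90.8 FPKM in replicates 1 to 5, and threat libraries ran from 69.4 to 127 (median 96.9, n = 6). Every group overlapped every other, and the highest library of all was place 24 h replicate 3.

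Hba-a2, the most abundant row, had the same highest library and the same lowest library as Hbb. It ran from 60.1 to 112 FPKM in place 1 h libraries (median 79.4), from 78.8 to 171 in naive ones (median 130) and from 73.1 to 189 in threat 1 h ones (median 139). Place 24 h libraries held 93.4, 114, 261, 159 and 123 FPKM in replicates 1 to 5, and threat 24 h libraries 88.1 to 186 (median 152). Again place 24 h replicate 3 was highest, and the 3 lowest libraries were place 1 h replicates 5 and 3 and threat 1 h replicate 3.

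Hba2 ran from 23.9 to 40.6 FPKM in place 1 h libraries (median 30.4), from 32.3 to 80.0 in naive (median 49.1) and from 27.4 to 70.7 in threat 1 h libraries (median 56.5). Place 24 h libraries held 32.7, 45.9, 103, 58.5 and 51.3 FPKM and threat 24 h libraries 38.5 to 75.2 (median 62.2). Hbb-b1 ran from 3.88 to 10.1 FPKM in place 1 h libraries (median 6.03), from 6.61 to 14.0 in naive (median 9.67) and from 7.36 to 14.95 in threat 1 h libraries (median 11.6). Place 24 h libraries held 6.64, 8.36, 21.4, 14.1 and 11.5 FPKM of Hbb-b1 and threat 24 h libraries 7.59 to 13.6 (median 11.6). The 4 rows thus had their highest value in the same library and their lowest in place 1 h replicate 3 or 5.

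**Figure D1:**
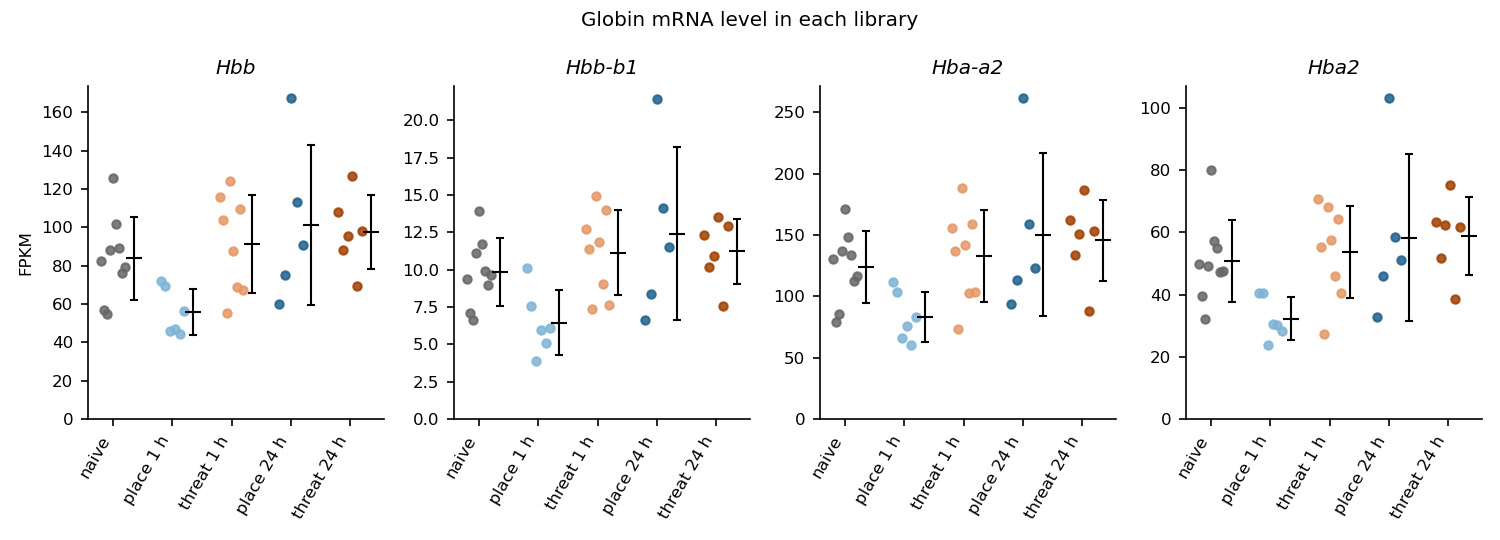
Level (FPKM, linear axes from 0, a different scale in each panel) of the 4 globin rows in each of 34 RNA libraries. Points are libraries, bars are group means ± SD (n = 9, 6, 8, 5 and 6); place 1 h libraries sit low in every panel and place 24 h replicate 3 is the highest point in each.

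In order of mean level, Hbb stood at 55.9 ± 12.2 FPKM (SD, n = 6) in place 1 h, 83.8 ± 21.7 (n = 9) in naive, 91.5 ± 25.5 (n = 8) in threat 1 h, 97.7 ± 19.2 (n = 6) in threat 24 h and 101.3 ± 41.9 (n = 5) in place 24 h libraries. Neighbours from naive upward differed by less than 1 SD of either group. The SD was widest at place 24 h for all 4 rows, at 41.4% to 46.7% of the mean. Replicate 3 held 167 FPKM of Hbb there and the other 4 libraries 60.1 to 113.

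Between 1 h and 24 h in place libraries, all 4 globin rows rose. Hbb was 0.78 ± 0.23 higher in log2(FPKM + 1) (SE, n = 5 and 6; limma adjusted p = 0.0191), Hbb-b1 0.79 ± 0.22 (0.0158), Hba-a2 0.78 ± 0.24 (0.0263) and Hba2 0.75 ± 0.23 (0.0291). Mean FPKM was 1.80 to 1.93 times as high at 24 h. For Hbb, Hba-a2 and Hba2, 4 of 5 libraries at 24 h exceeded every library at 1 h, and for Hbb-b1 3 of 5 did. The median of the 4 rows was 0.78, against 0.01 over all genes tested. As background, 13.3% of the 13153 genes changed in this comparison and 6.61% were higher. Without place 24 h replicate 3 the differences were 0.52 to 0.58 and 0 of the 4 rows passed (adjusted p = 0.0765 to 0.13), and without place 24 h replicate 4 they were 0.72 to 0.73 and 2 passed. Hba2 was also lost without place 1 h replicate 3 (adjusted p = 0.0536) or place 24 h replicate 5 (0.0505), and Hba-a2 without place 1 h replicate 5 (0.0637). Fitted on these 11 libraries alone, Hbb and Hba-a2 passed and Hbb-b1 and Hba2 did not (adjusted p = 0.0658 and 0.0527).

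Markers of other cell types were read in the same comparison, where 869 of all 13153 genes were higher and 874 lower, and their part in the globin result was not tested. Of 13 microglia markers 4 rose, among them Gpr34 (0.49), P2ry12 (0.41) and the complement gene C1qa (0.27), and none fell. Of 21 endothelial markers none rose and 3 fell, namely the endoglin gene Eng (-0.30), the adhesion molecule Esam (-0.25) and the amino acid transporter Slc7a5 (-0.21). Summed endothelial markers ran from 209 to 291 FPKM at 1 h (median 259) and from 218 to 264 at 24 h (median 227), lower at 24 h at the median, where globins were higher. Summed microglia markers ran from 149 to 212 FPKM at 1 h (median 198) and from 203 to 246 at 24 h (median 225). Of 4 leukocyte markers tested, Lcp1 rose (0.43), and the summed list of 27 ran from 23.8 to 37.1 FPKM at 1 h and from 32.0 to 45.7 at 24 h, with S100a8 at 0 to 0.32 and 0 to 0.111 FPKM. Of 2 platelet markers tested none passed (median -0.30), and the summed platelet list ran from 9.53 to 15.5 FPKM at 1 h (median 13.7) and from 9.19 to 10.9 at 24 h (median 9.66). Of 11 mural cell markers Abcc9 fell (-0.27).

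Heme genes were read in the same comparison, where 6.61% of all genes were higher. Of 10 heme synthesis genes 2 rose, among them Cpox (0.31, adjusted p = 0.0137), and the median was 0.04. Of 9 genes that clear heme, hemoglobin or iron 1 rose, Blvra (0.40), the enzyme that turns biliverdin into bilirubin, while Hmox1 was at -0.11 (adjusted p = 0.474). Of 8 other red cell genes tested none passed, with Epb49 at -0.17 and Bpgm at 0.07. The globins made outside the red cell lineage did not pass either, with cytoglobin (Cygb) at 0.10 and neuroglobin (Ngb) at 0.03. Alas2 was below the filter and ran from 0.312 to 0.773 FPKM at 1 h (median 0.391) and from 0.351 to 0.985 at 24 h (median 0.667).

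In place 24 h replicate 3, where globins were highest, summed endothelial markers (227 FPKM) and leukocyte markers (36.0) lay within the range of the other 4 place 24 h libraries, as did platelet markers (9.66). Mural markers (47.1), heme synthesis genes (84.3) and heme clearance genes (981) each lay below all 4 of them. The summed red cell genes other than the 4 rows (334.8 FPKM) lay above them (225.7 to 300.6) and ranked 2 among the 34 libraries. Its summed CA1 markers (946 FPKM) were the highest of the 34 libraries.

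At 1 h the place libraries had lower mean globin levels than naive ones, by differences that did not pass the test. The differences were -0.56 ± 0.20 for Hbb, -0.56 ± 0.19 for Hbb-b1, -0.56 ± 0.21 for Hba-a2 and -0.62 ± 0.20 for Hba2 (SE, n = 6 and 9; limma adjusted p = 0.249 to 0.33, unadjusted p = 0.00414 to 0.00997). In this comparison 0.129% of genes passed. All 6 place libraries lay below the naive median of Hbb, Hba-a2 and Hba2, and 3 or 4 of 6 below the lowest naive library. Naive replicates 5 to 9 and 1 to 4 form separate blocks of columns in the deposited table, which is no labelled batch, and the split was made after the data were seen. Hbb averaged 94.3 ± 20.2 FPKM (SD, n = 5) in the first block and 70.7 ± 17.2 (n = 4) in the second. Against naive replicates 5 to 9 alone all 4 rows fell, by 0.70 to 0.81 (adjusted p = 0.0203 to 0.0375). Against replicates 1 to 4 alone they were at -0.33 to -0.39 (0.71 to 0.766). The 0.129% above belongs to the fit with all 9 naive libraries. The share of all genes that passed in these refits is not given here, so these calls have no background beside them.

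Threat libraries at 1 h had higher mean globin levels than place libraries of the same time, again with no row past the threshold. The differences were 0.68 ± 0.20 for Hbb, 0.72 ± 0.20 for Hbb-b1, 0.64 ± 0.21 for Hba-a2 and 0.68 ± 0.21 for Hba2 (SE, n = 8 and 6; limma adjusted p = 0.933 to 1.00, unadjusted p = 0.000944 to 0.00452). Of 13153 genes 0% passed here, and 560 had an unadjusted p under 0.05. For Hbb, 5 of 8 threat libraries exceeded every place library. Threat 1 h replicates 4 and 7 held 6598 and 3929 FPKM of summed choroid plexus markers, a secretory epithelium of the ventricles, against at most 276 in any other library. Their Hbb levels were 124 and 109 FPKM, the highest and the third highest of the group. Without both, the differences were 0.50 to 0.59 and none passed.

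No globin row passed between threat and naive libraries. At 1 h the differences were 0.06 to 0.15 (adjusted p = 0.72 to 0.908), where 0.928% of genes passed, and the 95% interval for Hbb ran from -0.25 to 0.48. At 24 h they were 0.18 to 0.24 (0.463 to 0.576), where 10.1% passed, with an interval for Hbb from -0.16 to 0.64. Place libraries at 24 h were 0.13 to 0.23 above naive (0.523 to 0.762), where 5.05% passed.

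At 24 h place and threat libraries had close means with wide intervals. The threat minus place difference was -0.05 to 0.09 (adjusted p = 1 for each row, background 0%), with intervals from -0.44 to 0.47 for Hbb and from -0.46 to 0.50 for Hba-a2. Within threat libraries, 24 h minus 1 h was 0.03 to 0.16 (0.602 to 0.927), where 29.3% of all genes passed. The interval for Hbb there ran from -0.29 to 0.53. In threat libraries 10 of 21 endothelial and 8 of 11 mural markers fell over the same interval of time.

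Whether the change from 1 h to 24 h differed between threat and place libraries was tested as an interaction. It was -0.66 ± 0.30 for Hbb, -0.77 ± 0.30 for Hbb-b1, -0.63 ± 0.32 for Hba-a2 and -0.60 ± 0.31 for Hba2 (SE; limma adjusted p = 1 for each, unadjusted p = 0.0143 to 0.0649). Of all genes 0% passed this test, with 360 at an unadjusted p under 0.05. A difference between place and threat libraries in the change with time is therefore not shown. These comparisons share libraries, the place 1 h group above all, and are not independent of each other.

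**Figure D2:**
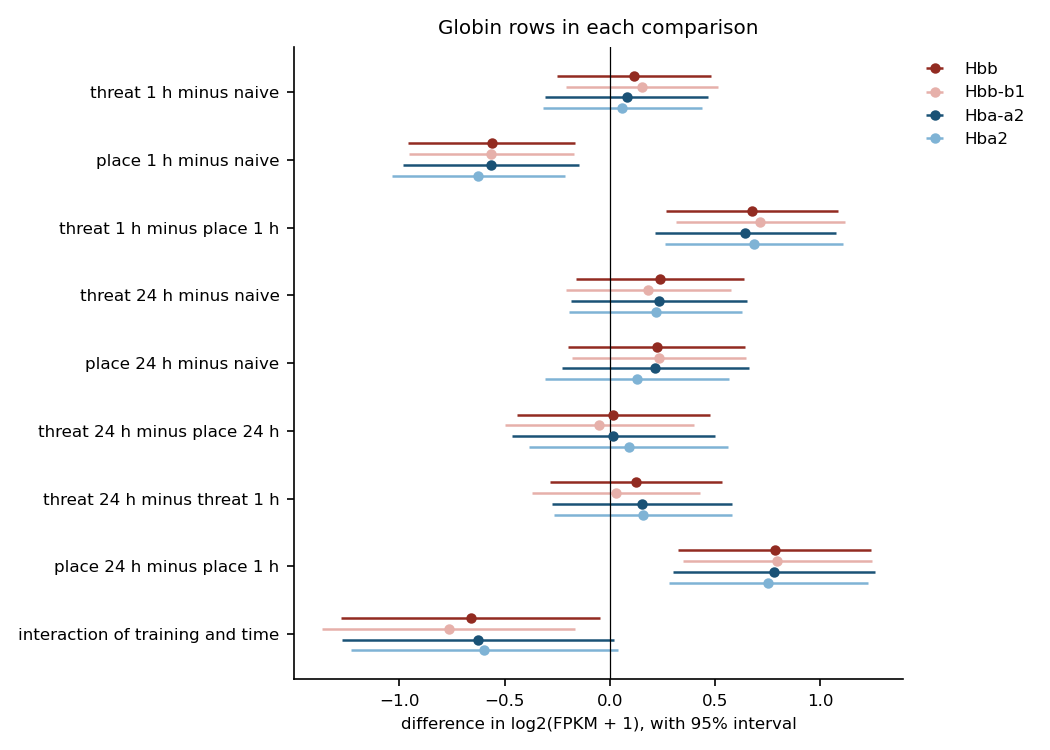
Difference in log2(FPKM + 1) for the 4 globin rows (colours) in each of the 9 comparisons, with 95% intervals from the limma fit of all 34 libraries. The intervals for place 24 h minus place 1 h run from 0.28 to 1.26 and those for threat minus naive include 0; only the place 24 h minus place 1 h differences passed after adjustment over 13153 genes.

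The 4 rows rose and fell together from library to library. After group means were subtracted from log2(FPKM + 1), the 6 pairs of rows had a Pearson r of 0.93 to 0.97 and a Spearman rho of 0.93 to 0.97 over 34 libraries. The permutation p was 1e-05 for each pair and each measure, the smallest that 100000 permutations within groups can give, and it stays 1e-05 after adjustment over the 6 pairs. Without the 2 libraries farthest from the median, r was 0.91 to 0.97. Reads from near-identical genes may be shared between rows of one family. The pairs that join an alpha and a beta row, which differ in sequence, had r from 0.93 to 0.97.

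The ratio of the chains was steadier than their level. Hba-a2 over Hbb had a median of 1.49 and ran from 1.27 to 1.62 over libraries in which Hbb itself varied 3.77-fold. The coefficient of variation of this ratio was 6.19%, against 32.5% for Hbb and 33.2% for Hba-a2. The group means of the ratio lay between 1.45 and 1.49, with an SD of 0.074 to 0.112. In place 24 h libraries the ratio ran from 1.36 to 1.56, so the globin-rich replicate 3 was high in both chains. Hba2 over Hba-a2 had a median of 0.402 (0.34 to 0.504) and Hbb-b1 over Hbb one of 0.115 (0.0842 to 0.141).

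**Figure D3:**
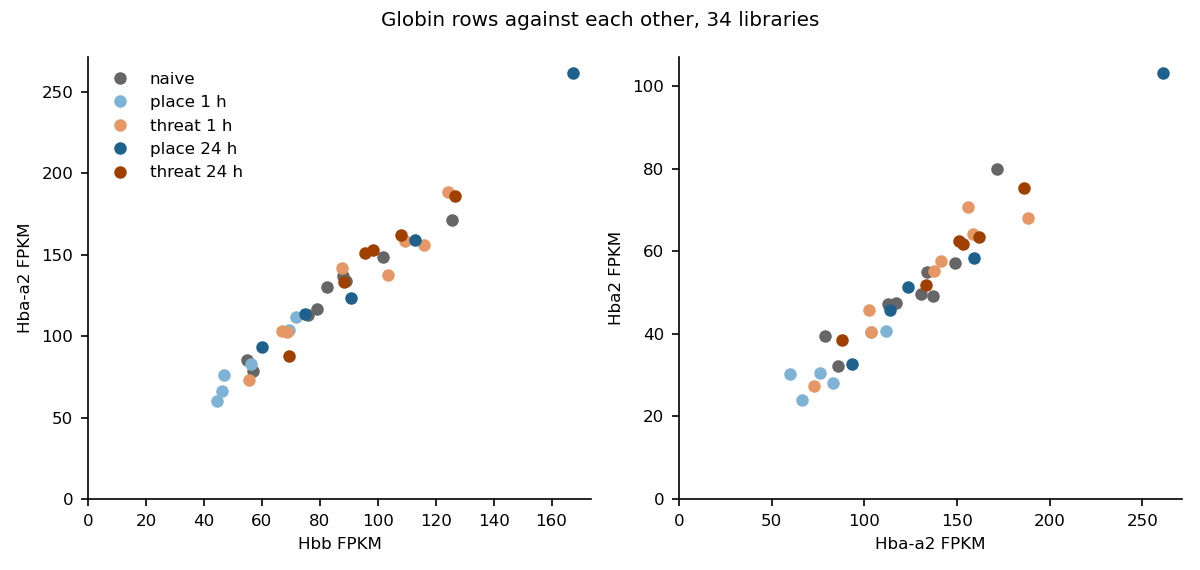
Hba-a2 against Hbb (left) and Hba2 against Hba-a2 (right), in FPKM on linear axes, 1 point per RNA library, coloured by group. The points follow a narrow band in both panels; place 24 h replicate 3 is the point at the upper right and place 1 h libraries gather at the lower left.

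Another 4 rows of the hemoglobin loci passed the filter. HBB (ENSRNOG00000048955, beta-1 subunit) averaged 38.0 FPKM, ENSRNOG00000031230 and ENSRNOG00000048992 (both described as beta-2 subunits) 10.5 and 6.14, and ENSRNOG00000045989 (alpha globin) 2.36. From 1 h to 24 h in place libraries HBB rose by 0.66 (adjusted p = 0.0458), and the others were 0.60, 0.58 and 0.41 higher (0.0609, 0.0628 and 0.19). Summed over all rows, 3 alpha rows averaged 180 FPKM and 5 beta rows 151. Their ratio had a median of 1.199 (1.02 to 1.30), against 1.86 (1.60 to 2.01) when only the 4 rows were used. The 4 rows held 82.6% of the summed globin level on average.

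Among 13149 other genes the ones most like the globin rows were these same loci. Pearson r with the mean log2 level of the 4 rows, over 34 libraries with group means subtracted, was 0.97 for HBB, 0.94 for ENSRNOG00000031230, 0.91 for ENSRNOG00000048992 and 0.80 for ENSRNOG00000045989. Then followed Ptrf (0.69), a coat protein of caveolae, Ets1 (0.66), a transcription factor of endothelium and lymphocytes, Laptm4a (0.66), Tpm4 (0.65), a tropomyosin, Nim1 (0.65) and Lsr (0.63), a lipoprotein receptor and junction protein of brain endothelium. The median r over all other genes was -0.01, and 98 genes reached 0.5. The points share library depth and dissection, and no p is given for these values. Below the filter, Hbz, the embryonic alpha-like chain (mean 0.273 FPKM), had an r of 0.78 and Alas2 one of 0.61. Klf1 (0.461 FPKM) had one of -0.02, at levels where few reads stand behind a value.

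By list, endothelial markers were most like the globin rows within groups. The median r was 0.34 over 21 endothelial markers, of which 20 were above 0, led in level by Cldn5 (r = 0.42), Slc2a1 (0.17), Itm2a (0.25) and Slco1c1 (0.56). It was 0.28 over 12 meningeal and fibroblast markers and 0.26 over 13 microglia markers, all above 0 in the latter, with C1qa at 0.26. It was 0.24 over 5 choroid plexus markers, 0.14 over 4 leukocyte, 0.10 over 11 mural, 0.05 over 2 platelet and 0.05 over 8 CA1 markers, where Slc17a7 was at -0.38. For 8 red cell genes other than globins it was -0.16, with Ank1, the red cell ankyrin, at 0.38 and Epb49 at -0.16. It was -0.05 over 10 heme synthesis genes and 0.09 over 9 heme clearance genes. Ngb and Cygb had 0.21 and -0.10.

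**Figure D4:**
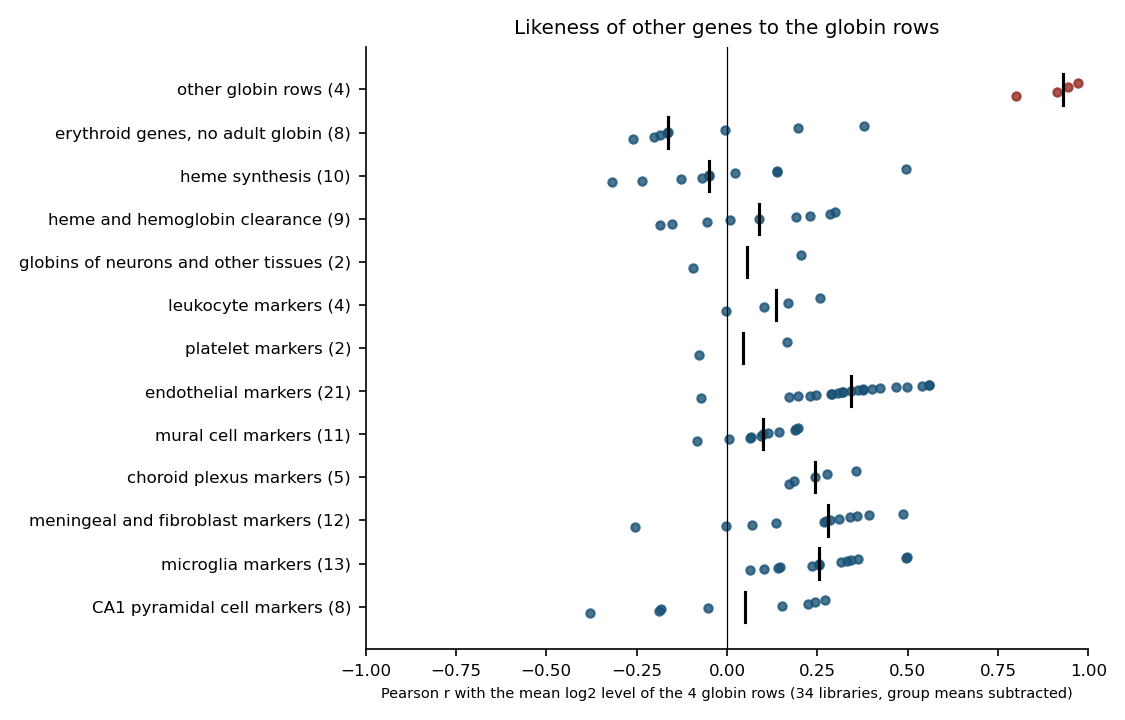
Pearson r of single genes with the mean log2 level of the 4 globin rows over 34 libraries, group means subtracted, by gene list (number of tested genes in brackets). Points are genes and black bars medians: the other globin rows lie from 0.80 to 0.97 and endothelial markers around 0.34.

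DNA methylation at the globin genes was read from MBD capture, in which more methylated DNA gives more captured reads. RPKM (reads scaled to bin length and library size) was averaged over bins of 500 nt that touch each gene, 4 for Hbb, 16 for Hbb-b1 and 3 each for Hba-a2 and Hba2. At 1 h, the 10 captured libraries ran from 0.104 to 0.368 RPKM over Hbb (median 0.214) and the 3 input libraries from 0.17 to 0.309. Over Hbb-b1 captured libraries ran from 0.21 to 0.319 and input from 0.217 to 0.278, and over Hba2 from 0.414 to 0.83 and from 0.494 to 0.672. Captured and input DNA overlapped at these genes, and capture over input was 0.98 to 1.08. Over Hba-a2 captured libraries ran from 0.483 to 0.855 RPKM (median 0.626) and input from 0.344 to 0.601, a ratio of means of 1.402. At 24 h captured libraries ran from 0.117 to 0.218 RPKM over Hbb and input from 0.235 to 0.428, with no overlap. Over Hbb-b1 they did not overlap either, in the other direction, with captured libraries at 0.46 to 0.632 RPKM and input at 0.444 to 0.458. How many other genes separate in this way was not computed, so the 2 separations cannot be called particular to globin genes. The ratio at 24 h was 0.50 for Hbb, 1.19 for Hbb-b1, 1.51 for Hba-a2 and 1.04 for Hba2.

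The highest captured level at 1 h, among the bins over the 4 genes and 1000 nt on either side, lay in the body of Hba-a2. The bin at positions 15498001 to 15498500 of chromosome 10 (rn5), centred 494 nt into the gene, averaged 1.06 RPKM captured and 0.507 in input at 1 h. It averaged 0.5 and 0.27 at 24 h. Captured DNA also exceeded input in some bins of the beta genes at 1 h. The Hbb-b1 bin centred at 6986 nt held 0.597 RPKM against 0.177, and the Hbb bin centred at -162 nt held 0.545 against 0.317. At 24 h these were 0.274 against 0.295 and 0.346 against 0.269. Elsewhere in the body of Hbb-b1 captured DNA exceeded input at 24 h, as at 3986 nt (0.907 against 0.45) and 1486 nt (0.872 against 0.505). Other bins of both beta genes lay under input, as at 838 nt into Hbb (0.00502 against 0.0828 at 1 h) and 2486 nt into Hbb-b1 (0.388 against 0.653 at 24 h). The bins on the upstream side of both alpha genes, centred at -506 nt from the Hba-a2 start and -445 nt from the Hba2 start, held 0.0143 and 0.0337 RPKM captured at 1 h and 0.0476 and 0.116 at 24 h, against 0.18 and 0.317 in input at 1 h and 0.244 and 0.248 at 24 h. These bins were chosen after their values were seen, and no test was made of them. The Hba-a2 bin was the only bin within 1000 nt of the 4 genes that reached 1 RPKM and 2 times input at 1 h, and no such bin did at 24 h. At 1 h it held 1.18 RPKM in naive, 0.984 in place and 1.04 in threat libraries (means, n = 3, 4 and 3). The log2 differences were -0.14 ± 0.21 for threat minus naive (SE; limma adjusted p = 0.778), -0.21 ± 0.20 for place minus naive (1) and 0.07 ± 0.20 for threat minus place (0.909). Of 350378 bins tested, 0.016%, 0.00285% and 0.0174% passed in these comparisons. The smallest value above 0 was 0.04 to 0.0508 RPKM in a library at 1 h.

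**Figure D5:**
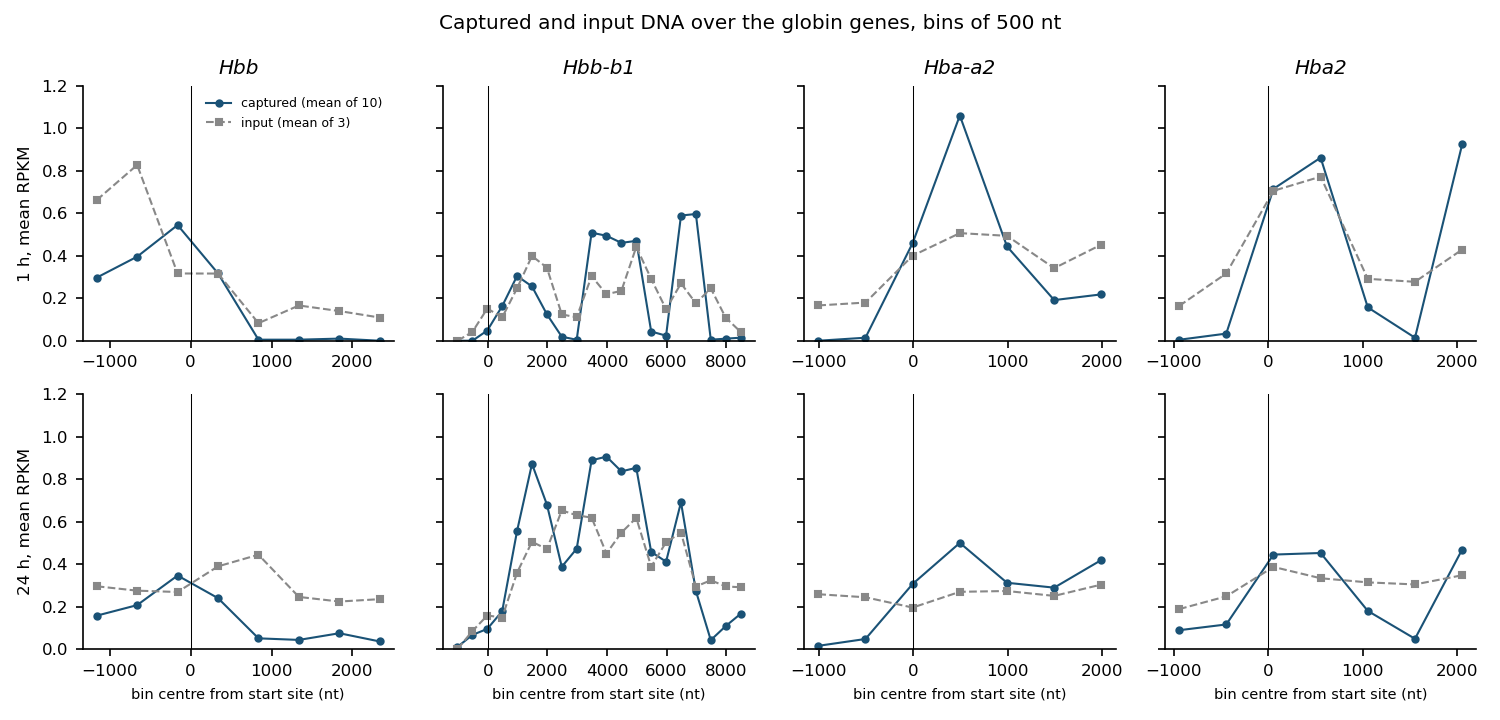
Mean RPKM of captured DNA (10 libraries) and input DNA (3 libraries) in bins of 500 nt over the 4 globin genes and 1000 nt on either side, by distance from the annotated start, at 1 h (top) and 24 h (bottom). Captured DNA stands above input in the body of Hba-a2 (1.06 against 0.507 RPKM at 1 h). It also does so in some bins of Hbb-b1 (0.597 against 0.177 at 6986 nt, 1 h, and 0.907 against 0.45 at 3986 nt, 24 h). The Hbb bin at -162 nt does so too (0.545 against 0.317, 1 h). Other bins of Hbb and Hbb-b1 lie near or under input.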

How the data were processed

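The authors deposited RNA levels as FPKM per gene and MBD levels as RPKM per bin of 500 nt. Per the labels, polyA+ RNA with RIN above 8 was made into directional libraries and methylated DNA was captured with a MethylMiner kit. Per the submitters' processing notes TopHat 1.4.0, Bowtie, DESeq2 and edgeR were used and mm10 and rn5 are named, without their roles. The tables are titled GRCm38, but gene names and chromosome lengths are those of rat rn5, used here.

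All 34 RNA libraries entered 1 limma 3.58.1 fit with trend (R 4.3.3) on log2(FPKM + 1), over 13153 genes that reached 1 FPKM in 5 or more libraries, fitting 5 groups (29 residual degrees of freedom). Calls needed an adjusted p (Benjamini-Hochberg) below 0.05. Differences are on this log scale, which understates changes of low genes. MBD bins were fitted at each time on log2(RPKM + 0.25). The RNA fit was tested on simulated data. Read totals were inferred from FPKM steps of olfactory receptor genes (relative tolerance 1e-05), and each globin value then came out whole within 0.01 reads in 34 of 34 libraries. Every per-sample column matched a label.

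Replicate numbers were not taken as pairs: no label says that a number marks a shared animal, and deviations of same-numbered libraries correlated with r from -0.50 to 0.59. Named genes were the 4 rows, the 10 genes most like them, up to 4 of the most abundant genes of each of 12 lists (182 of 199 list genes found) and list genes that passed in a comparison described, besides blood genes and single list genes (Alas2, Klf1, Hmox1, Ank1, C1qa, Wfs1) named for their role after their values were seen. Members and lists were chosen with earlier results of these data known. A few list genes that this rule names are not reported here.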

Additional observations from a re-analysis of the deposited data

How the results depend on the processing

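When a fit held just the libraries of the groups compared, 2 globin rows passed for place 24 h minus place 1 h instead of 4, and with both place replicates 3 left out together (chosen after seeing the data) 0 did. When each library was left out in turn, 0 to 4 passed. For place 1 h minus naive, 4 passed against naive replicates 5 to 9 only, instead of 0, with no share of all genes given for that refit. The replicate block left 3 of the 4 calls (Hba2 adjusted p = 0.0508); the numbers were not shown to pair samples. Pseudocount, filters, median-ratio scaling, quantile normalization, array weights and robust empirical Bayes kept all 4. Signs turned only in differences that did not pass. Against naive replicates 5 to 9, threat 1 h was at -0.071 (Hbb), -0.081 (Hba-a2) and -0.12 (Hba2), and place 24 h at -0.055 (Hba2). Without threat 1 h replicates 4 and 7, threat 1 h minus naive was -0.018 (Hbb), -0.065 (Hba-a2) and -0.057 (Hba2). Without both place replicates 3, place 24 h minus naive was -0.0064 (Hba-a2) and -0.10 (Hba2), and threat minus place at 24 h was 0.16 (Hbb-b1), against 0.026 with array weights. With 1 library left out, threat minus place at 24 h ran from -0.15 to 0.22 (Hbb), -0.23 to 0.16 (Hbb-b1), -0.13 to 0.24 (Hba-a2) and -0.089 to 0.32 (Hba2). Threat 1 h minus naive ran from -4.4e-05 to 0.19 (Hba-a2) and -0.015 to 0.19 (Hba2). Place 24 h minus naive ran from -0.0064 to 0.36 (Hba-a2) and -0.10 to 0.31 (Hba2), and threat 24 h minus 1 h from -0.042 to 0.13 (Hbb-b1). The cause was not tested. The lowest r between rows was 0.91 to 0.95 over its alternatives, and 0 globin bins passed in any MBD setting.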
